A study of Mus musculus with 8 samples.

Results

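The genes described here encode subunits of respiratory complexes II, III, IV and V and cytochrome c, measured in neonatal mouse hearts. They were chosen by a rule on gene symbols, set with earlier results of these data known. It took every probe whose single symbol names a succinate dehydrogenase subunit (Sdha to Sdhd) or is Cyc1 or Cycs. Probes whose single symbol begins with Uqcr, Cox4 to Cox8 or Atp5 were taken too. This gave 59 probes of 38 genes. Measurement required values from 3 or more wildtype and 3 or more null arrays, which held for 37 of the 38 genes, or 37 of 11804 features tested in all. They comprise 2 genes of complex II, 7 of complex III, 12 of complex IV, 15 of complex V and Cycs. Cox7a2l, a supercomplex factor that resembles subunit 7a, is counted with complex IV and among the subunit genes throughout. The gene left out was Cox4i2, the lung isoform of subunit 4, with a value on 1 wildtype array and on 0 null arrays. Probes of Sdha and Sdhc carry a second symbol in the annotation and were not used. Cyc1, Uqcrq, Atp5g2, Atp5g3 and the heart and muscle isoforms Cox6a2, Cox7a1 and Cox8b were not analysed here.

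The respiratory chain sits in the inner mitochondrial membrane. Complex II passes electrons from succinate to ubiquinone, complex III passes them from ubiquinol to cytochrome c, and complex IV, cytochrome c oxidase, passes them from cytochrome c to oxygen. Complexes III and IV pump protons, and complex V, the ATP synthase, uses the proton gradient to make ATP. All subunits of complex II and most of those of the other complexes are encoded in the nucleus. The heart is rich in mitochondria, and its oxidative capacity grows after birth. The study compared hearts with and without connexin43, the product of Gja1 and the main gap junction protein between working heart muscle cells.

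Each array carried cDNA, labelled with Cy3, from a pool of 3 neonatal hearts, and 4 pools were of wildtype C57BL mice and 4 of connexin43 null mice of the same background. The second dye, Cy5, marked 1 common reference made from adult C57BL brain, lung, liver, kidney, spleen, stomach, aorta, heart and gonads of both sexes. The labels give neither the exact age nor how the null allele was made. A value is the log2 ratio of heart over reference after each array was centred on its median, so that 0 is the median spot of that array and 1 unit is a 2-fold ratio. It is not an amount of transcript, and it carries the properties of the probe and of the dyes, which were the same on all arrays. In these bulk samples fewer cells of a type and less RNA per cell cannot be told apart. Whether the pools of a genotype came from separate litters is not stated, so that p-values measure the spread between pools only.

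Gja1 separated the arrays as labelled. Its log2 ratios were 1.04, 1.31, 0.99 and 0.79 on wildtype replicates 1 to 4 and -0.29, 0.25, 0.12 and 0.22 on null replicates 1 to 4, with an exact two-sided permutation p of 0.0286, the smallest that 70 assignments allow. The difference was -0.95 (SE 0.15), with an adjusted p of 0.340 in limma. Where its 1 probe lies with respect to the deletion is unknown here, so that the probe checks the labels only if it reads deleted sequence. The arrays had values at 12971 to 23929 of 28704 spots, the fewest on wildtype replicate 1. Its median Spearman correlation with the remaining arrays was also the smallest, 0.576 against at least 0.663. Ratios were spread most widely on wildtype replicate 1 and null replicate 3. Over spots with values on all arrays their SDs were 0.54 and 0.53, against 0.38 to 0.47 on the other arrays. Of the 11 fixed cardiomyocyte markers 3 were measured, Actn2, Pln and Nppa, and all 3 had mean ratios of at least 0.88. The direction of the ratio was itself taken from sarcomere genes, Actn2 among them, so that the positive sign is not a separate check.

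Most transcripts of complexes II to V had a higher ratio of neonatal heart over adult reference than the median spot of the array. Of the 37 measured genes 35 had a mean log2 ratio above 0 over all 8 arrays, and 31 lay above the upper quartile of all features. The median of the 36 subunit genes was 0.42, against 0.00 for all features. The 30 measured genes of complex I, the NADH dehydrogenase, were all above 0 as well, with a median of 0.29. Of the 35 genes with values on all 8 arrays, 26 were above 0 on every array, or 74.3%, against 19.8% of the 8238 features with such values. The reference itself contained adult heart. Medians of the mean ratio were 0.58 for complex II, 0.36 for complex III, 0.39 for complex IV and 0.43 for complex V. The 2 complex II genes, at 0.58 and 0.59, lay just above every gene of complex III (0.16 to 0.52) and of complex IV (-1.65 to 0.57), and inside the range of complex V (-0.11 to 0.68).

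The highest ratio belonged to Atp5b, which encodes the catalytic beta subunit of the ATP synthase head, at 0.68 over all arrays, a 1.60-fold ratio. Next came Atp5c1 at 0.63 and Atp5a1 at 0.60, which encode the gamma and alpha subunits of the same head. These were followed by Sdhd and Sdhb of complex II, at 0.59 and 0.58. The spread of 1 gene between arrays had a median SD of 0.22 over wildtype and 0.16 over null arrays. Part of that spread is shared by the genes of an array, and whether neighbours in this order differ was not tested. At the other end stood Cox6b2 at -1.65, Atp5md at -0.11, Atp5e at 0.12, and Uqcrc1 and Cox6a1 at 0.16 each.

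Cox6b2 had by far the lowest ratio among the subunits. It encodes an isoform of cytochrome oxidase subunit 6b that is known from the testis. The reference contained gonads, and their part in this ratio was not tested. Its ratios were -1.66, -1.39, -1.72 and -1.66 on the wildtype arrays and -2.0, -1.85, -1.35 and -1.58 on the null arrays. Every array thus lay at or below -1.35, the genotypes overlapped, and only 53 of 11804 features had a lower mean ratio. Its general counterpart Cox6b1 read 0.24, 0.21, 0.79 and 0.58 on the wildtype arrays and 0.53, 0.47, 0.42 and 0.55 on the null arrays. Within an array Cox6b2 minus Cox6b1 was -2.06 ± 0.40 in wildtype and -2.19 ± 0.32 in null hearts (SD, n = 4 each). The genotype difference in this isoform ratio was smaller than the spread between pools, at -0.12 and an exact two-sided permutation p of 0.657. It was the only pair of tissue and general isoforms with both genes measured. The other Cox6b2 probe, with a value on 1 null array, was not used.

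**Figure D1:**
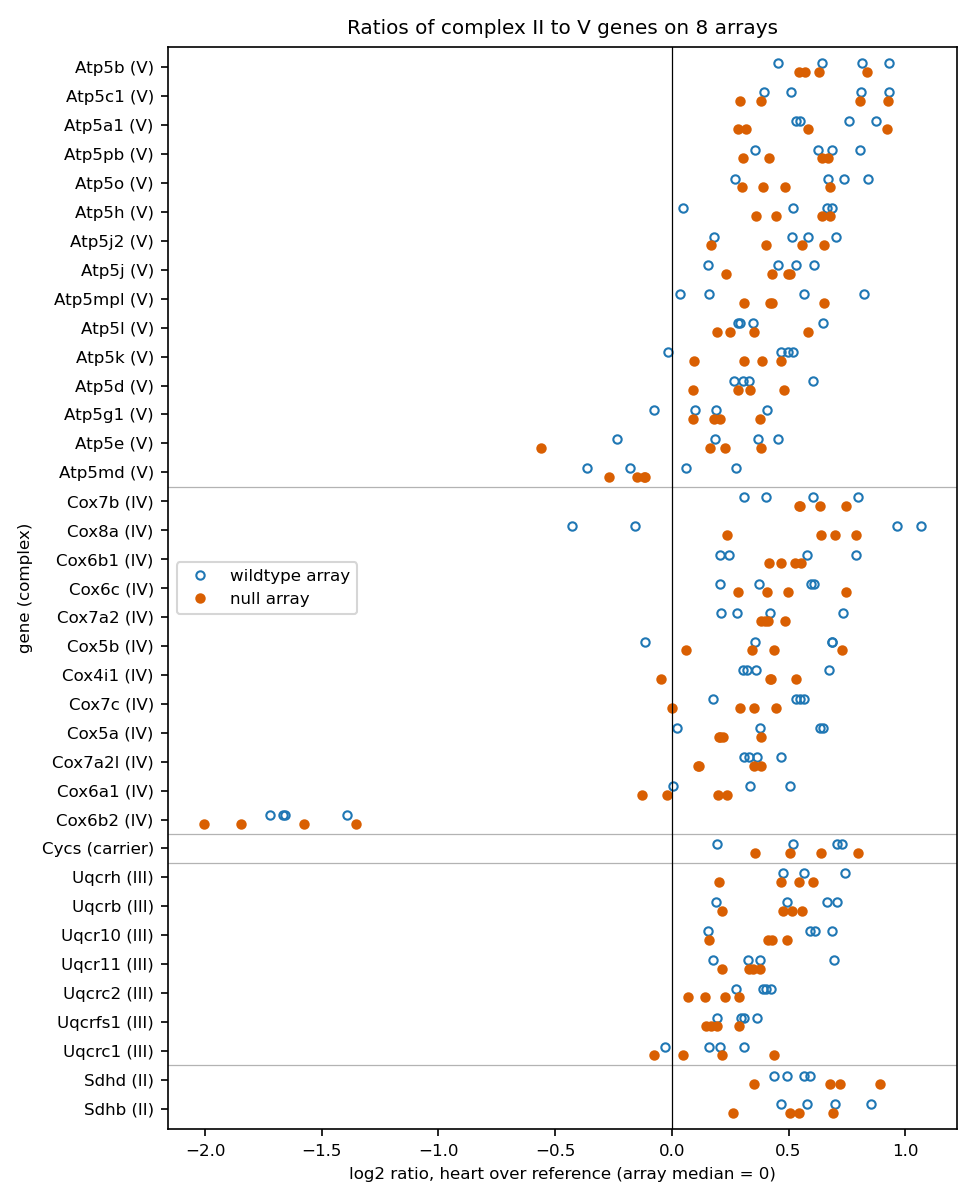
The log2 ratio of heart over reference (x axis, array median at 0) is plotted for each gene (y axis, with its complex in brackets), with an open circle for each wildtype array and a filled circle for each null array. Most genes lie between 0 and 1 in both genotypes, Cox6b2 lies near -1.65, and the wildtype and null arrays overlap for every gene shown.

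The members shared part of their variation between arrays. Among the wildtype arrays, replicate 1 held the lowest value for 29 of 35 genes and replicate 3 the highest for 21. Among the null arrays, replicate 3 held the lowest value for 22 of 35 and replicate 4 the highest for 21. For 34 of these genes, without Cox6b2, their mean on each array was subtracted. The median SD of a gene then dropped from 0.22 to 0.12 over wildtype arrays and from 0.16 to 0.11 over null arrays. Each gene is part of that mean, which lowers its SD in part by construction. Neither the drop nor the counts above were computed for all features. Genes of 1 array share its labelling, scan and pool of hearts, so that this is a description of the arrays.

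Averaged over its 15 genes, complex V read 0.15, 0.47, 0.56 and 0.56 on wildtype replicates 1 to 4 and 0.37, 0.39, 0.20 and 0.55 on null replicates 1 to 4. Complex III, over 6 genes with values on all arrays, read 0.20, 0.35, 0.50 and 0.45 in wildtype and 0.27, 0.31, 0.14 and 0.39 in null hearts. Complex IV, over 10 genes without Cox6b2, read 0.23, 0.46, 0.69 and 0.33 in wildtype and 0.47, 0.42, 0.24 and 0.51 in null hearts. In each of these complexes wildtype replicate 1 was the lowest wildtype array and null replicate 3 the lowest null array, and the genotypes overlapped. Complex II, with 2 genes, read 0.51, 0.53, 0.67 and 0.63 in wildtype and 0.45, 0.61, 0.47 and 0.79 in null hearts.

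The 28 measured genes of complex I, the NADH dehydrogenase, that had values on all arrays followed the same order at both ends, with 0.18 on wildtype replicate 1, 0.19 on null replicate 3 and 0.52 on wildtype replicate 3. Assembly factors of the complexes, 19 with values on all arrays, were instead highest on wildtype replicate 1 at 0.28. The other wildtype arrays read 0.09 to 0.17, and null replicate 3 was the lowest null array at 0.04. Of the marker lists, fibroblast markers (4 genes) shared both low arrays, with 0.28 on wildtype replicate 1 against 0.64 to 0.87 on the other wildtype arrays and 0.56 on null replicate 3 against 0.64 to 0.90 on the other null arrays. Sarcomere genes, 8 in number, were lowest on wildtype replicate 1 at 0.64 but read 0.84 on null replicate 3, inside the null range of 0.78 to 1.04. The mean of the 3 cardiomyocyte markers was 1.30 on wildtype replicate 1, the highest wildtype array, and 1.15 on null replicate 3. Erythroid markers, 5 with values on all arrays, read -0.43 on wildtype replicate 1 and -0.27 on null replicate 3. They ranged from -0.74 to 0.01 in wildtype and from -0.27 to -0.04 in null hearts, so that null replicate 3 was the lowest null array here too. Endothelial markers, 5 in number, were highest on wildtype replicate 1 at 0.92 and, with 0.71, lowest among the null arrays on replicate 3. Macrophage markers, 3 in number, read -0.78 on wildtype replicate 1, inside the wildtype range, and were lowest among the null arrays on replicate 3 at -0.98. Smooth muscle markers, 2 in number, shared neither low array. They read -0.58 on wildtype replicate 1, where wildtype ran from -0.60 to -0.36, and -0.65 on null replicate 3, where null ran from -0.70 to -0.44. The part of cell makeup, RNA quality or labelling in the array differences was not tested.

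**Figure D2:**
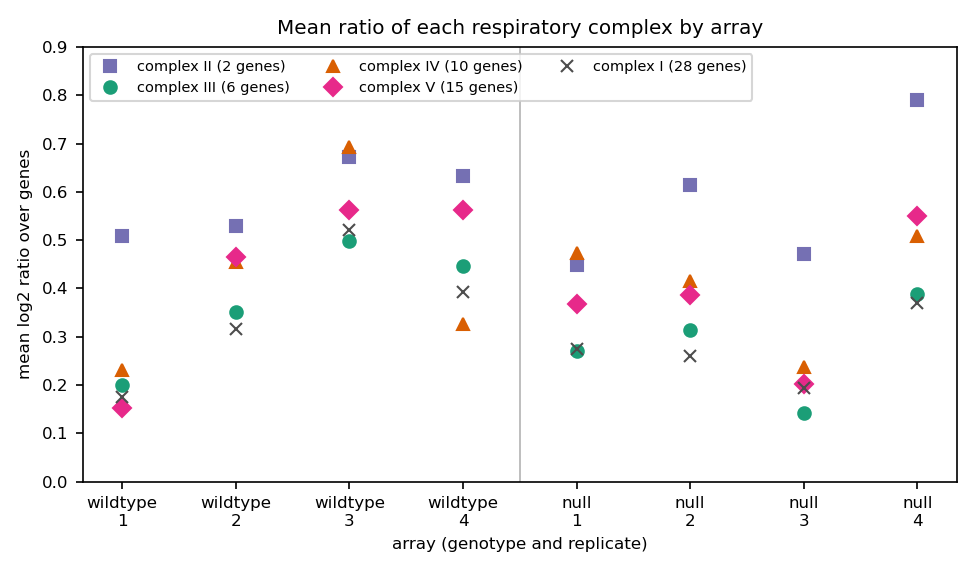
The mean log2 ratio over genes with values on all arrays (y axis) is plotted for each array (x axis, genotype and replicate), with 1 symbol per complex and complex I for comparison; Cox6b2 is left out of complex IV. Complexes III, IV and V are lowest on wildtype replicate 1 (0.15 to 0.23) and null replicate 3 (0.14 to 0.24), and the wildtype and null arrays overlap in each complex.

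Promoter sequences are described because nuclear genes of the respiratory chain are known for shared promoter elements. RefSeq windows on GRCm38.p6, from 250 bases before to 50 after a start site, were found for 31 of the 37 genes and were absent for Atp5a1, Atp5mpl, Cox4i1, Cox6c, Uqcrb and Uqcrc2. Nuclear respiratory factor 1 and the ETS factor GABP are textbook activators of respiratory genes, and YY1 is a further factor at such promoters. Each motif was searched on both strands, and matches of different motifs were free to overlap. Counts are of genes, and a gene with several windows counted if any of them held a match. There were 32851 windows for 27025 genes, and 60.4% of their start sites lay at the 5′ end of the gene in the gene table. The core of the NRF1 site, CGCANGCG, was found in 14 of 31 members with a window, or 45.2%, against 9.22% of all 27025 genes with a window. The ETS core CCGGAAG was found in 13 of 31, or 41.9%, against 9.93%, and the YY1 core AAGATGGC in 3, or 9.68%, against 3.19%. At least 1 of these 3 was present in 21 members, or 67.7%, against 19.5% of all genes.

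The counts were uneven between the complexes. The NRF1 core was found in 8 of 13 complex V genes with a window, 3 of 5 of complex III and 1 of 2 of complex II. In complex IV it was found in 1 of 10, where the match was in Cox6a1. With the windows of 1 gene averaged, members also held more CpG pairs, a median of 19 against 7 over all genes. Their median GC content was 56.3% against 52.8%. The motif GGGCGG, bound by Sp1 and itself made of G and C, was found in 41.9% of members with a window against 38.2% of all genes. TATAAA was found in 2 members, or 6.45%, against 15.7%. A match is a string of letters, and no binding was measured.

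To show what such a stretch looks like, the 200 bases before the start site are given for 1 gene of each complex, in the order II to V, with matches to the 3 cores in capitals. Eligible were members with 1 window only, whose stretch overlaps no other annotated gene. In each complex the eligible member with the most matches in the stretch was taken, with ties going to the higher mean ratio. The choice was made after the matches were seen. Sdhb lies at chr4:140961071-140961270 on the plus strand, Uqcr11 at chr10:80406822-80407021 on the minus strand, Cox6a1 at chr5:115348959-115349158 on the minus strand and Atp5e at chr2:174464102-174464301 on the minus strand, in GRCm38.p6 and printed 5′ to 3′ as transcribed.
Sdhb: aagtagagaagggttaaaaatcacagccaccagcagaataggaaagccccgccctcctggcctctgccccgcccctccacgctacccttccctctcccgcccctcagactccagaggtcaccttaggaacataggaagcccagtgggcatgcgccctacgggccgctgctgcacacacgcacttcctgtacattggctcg
Uqcr11: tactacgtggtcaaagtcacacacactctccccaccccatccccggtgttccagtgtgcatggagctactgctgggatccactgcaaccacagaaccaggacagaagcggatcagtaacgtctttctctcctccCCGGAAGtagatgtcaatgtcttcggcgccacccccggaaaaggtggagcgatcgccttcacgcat
Cox6a1: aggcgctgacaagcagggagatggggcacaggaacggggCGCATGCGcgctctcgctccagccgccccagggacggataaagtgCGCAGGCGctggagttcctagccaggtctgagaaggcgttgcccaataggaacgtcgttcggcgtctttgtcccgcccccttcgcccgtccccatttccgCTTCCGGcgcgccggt
Atp5e: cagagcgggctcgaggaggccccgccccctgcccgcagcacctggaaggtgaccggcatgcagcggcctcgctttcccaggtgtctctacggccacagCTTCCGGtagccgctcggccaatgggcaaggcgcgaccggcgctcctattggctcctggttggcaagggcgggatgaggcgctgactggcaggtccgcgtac
Cox6a1 has 2 NRF1 cores and 1 ETS core in this stretch, the ETS core at -16 to -10 relative to the start. Uqcr11 and Atp5e have 1 ETS core each, read on opposite strands, and the Sdhb stretch has none of the 3.

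The comparison of genotypes asked whether the absence of connexin43 changed these transcripts. Differences were small, and 0 of 37 members passed an adjusted p of 0.05 in limma, as was true of all 11804 features (0% called). At an unadjusted p under 0.05 the count was also 0 of 37, where 6.13% of all features were counted as lower and 2.1% as higher in null hearts. In 0 of 37 members did the 4 null values lie wholly below or above the wildtype values, against 5.54% of all features below and 2% above. The 95% interval of the difference lay within 1.5-fold in either direction for 35 of 37 genes. The exceptions were Atp5e (-0.61 to 0.33) and Cox8a (-0.45 to 0.91).

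The direction was uneven between the complexes. Of the 36 subunit genes 27 had lower values in null hearts, or 75%, against 59.1% of all features, with a median log2 difference of -0.07 against -0.04 for all features. The count was 7 of 7 in complex III, 12 of 15 in complex V, 7 of 12 in complex IV and 1 of 2 in complex II. Median differences were -0.09, -0.06, -0.05 and -0.0050 in the same order. These shares and medians are a description and were not tested, since genes of 1 array are not independent. The 30 measured complex I genes had lower values for 24, with a median of -0.06.

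**Figure D3:**
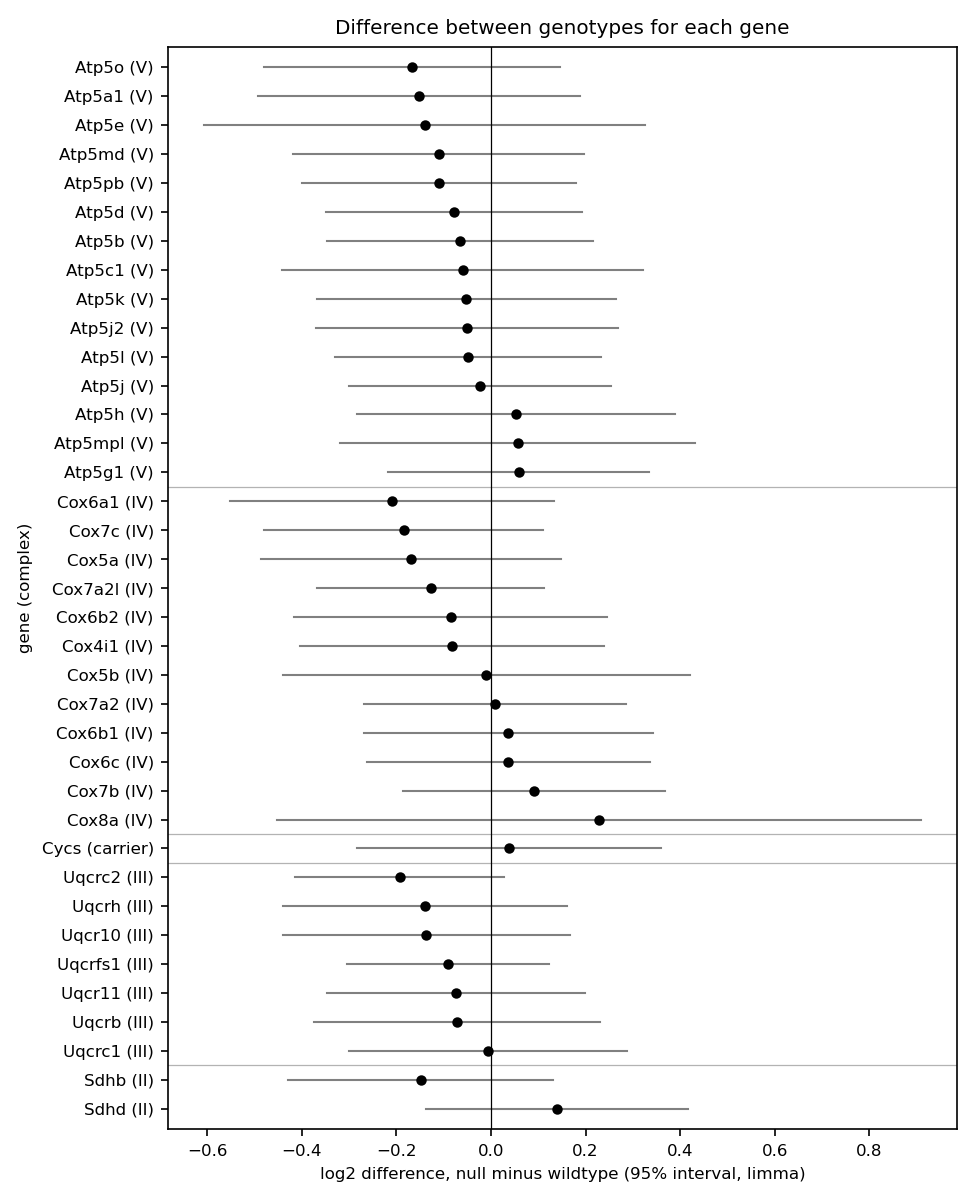
The log2 difference of null minus wildtype (x axis) is plotted for each gene (y axis, with its complex in brackets), with the limma estimate as a point and its 95% interval as a line. Every interval includes 0, and all 7 complex III estimates lie below 0.

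Within complex III, the core protein gene Uqcrc2 had the smallest p-value of all members. It read 0.28, 0.39, 0.43 and 0.40 on wildtype replicates 1 to 4 and 0.14, 0.23, 0.07 and 0.29 on null replicates 1 to 4. Null replicate 4 lay just above wildtype replicate 1, and the remaining 3 null arrays were lower than every wildtype array. The difference was -0.19 (SE 0.10, 1.14-fold, 95% interval -0.41 to 0.03), with an adjusted p of 0.614 in limma. All 4 of its probes were lower in null hearts, by -0.09, -0.10, -0.23 and -0.35. The probe with the largest difference had ratios below 0 on 7 of 8 arrays, unlike the other 3 probes.

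Uqcrh, the gene of the hinge protein that aids the contact with cytochrome c, read 0.48, 0.74 and 0.57 on wildtype replicates 2 to 4, had no value on replicate 1, and read 0.47, 0.61, 0.20 and 0.54 in null hearts. Its difference was -0.14 (SE 0.13, adjusted p = 0.782 in limma) over 3 wildtype arrays. Uqcr10, the gene of a small subunit, read 0.16, 0.61, 0.68 and 0.59 in wildtype and 0.41, 0.43, 0.16 and 0.49 in null hearts, a difference of -0.14 (SE 0.14). In both genes null replicate 3 was the lowest null array. Uqcrfs1, which encodes the Rieske iron-sulfur protein, Uqcr11 and Uqcrb had -0.09, -0.07 and -0.07. The other core protein gene, Uqcrc1, had -0.01, with 0.07 and -0.08 on its 2 probes, so that the sign of its difference depends on the probe.

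Complex II was represented by Sdhb, its iron-sulfur subunit, and Sdhd, a membrane anchor, which went in opposite directions. Sdhb read 0.58, 0.47, 0.85 and 0.70 in wildtype and 0.54, 0.51, 0.26 and 0.69 in null hearts, a difference of -0.15 (SE 0.13). Its 2 probes gave -0.27 and -0.02, and the first read 0.06 on null replicate 3 against 0.54 to 0.85 on the other null arrays. Sdhd read 0.44, 0.59, 0.49 and 0.57 in wildtype and 0.35, 0.72, 0.68 and 0.89 in null hearts, a difference of 0.14 (SE 0.13). Adjusted p-values were 0.756 and 0.767 in limma, and the genotypes overlapped in both genes.

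In complex IV the smallest p-values belonged to Cox7c, Cox6a1 and Cox7a2l, all with lower values in null hearts. Cox7c, the gene of a small subunit at the edge of the oxidase, read 0.18, 0.55, 0.57 and 0.53 in wildtype and 0.35, 0.29, 0.00 and 0.45 in null hearts. Its 3 higher wildtype arrays lay above all null arrays, and wildtype replicate 1 lay below 3 of them. The difference was -0.18 (SE 0.13, adjusted p = 0.718 in limma). Cox6a1, the general isoform of subunit 6a, read 0.00, 0.51 and 0.33 on wildtype replicates 2 to 4 and -0.02, 0.20, -0.13 and 0.24 in null hearts, a difference of -0.21 (SE 0.15) over 3 wildtype arrays.

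Cox7a2l encodes a factor that joins complexes III and IV into supercomplexes and resembles subunit 7a. It read 0.31, 0.36, 0.47 and 0.33 in wildtype and 0.11, 0.38, 0.12 and 0.35 in null hearts, a difference of -0.13 (SE 0.11), with -0.03 and -0.23 on its 2 probes. The null arrays stood at 2 levels, with replicates 1 and 3 below all wildtype arrays and replicates 2 and 4 among them. Its relative Cox7a2, the general isoform of subunit 7a, read 0.21, 0.28, 0.73 and 0.42 in wildtype and 0.38, 0.40, 0.48 and 0.41 in null hearts, a difference of 0.01 (SE 0.13). The 4 null values of Cox7a2 had an SD of 0.04 against 0.23 in wildtype, and its 2 probes gave 0.02 and -0.01.

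Cox7b, the small subunit gene with the highest ratio of complex IV, had the opposite sign, 0.09 (SE 0.13). It read 0.31, 0.40, 0.80 and 0.60 in wildtype and 0.75, 0.54, 0.63 and 0.55 in null hearts. Cox4i1, the general isoform of subunit 4, had -0.08 (SE 0.15), and null replicate 3 stood at -0.05 against 0.42 to 0.53 on the other null arrays. Cox8a, the general isoform of subunit 8, varied most of all members, with -0.16, 1.07, 0.96 and -0.43 in wildtype and 0.79, 0.70, 0.23 and 0.64 in null hearts. Its difference of 0.23 had an SE of 0.31, smaller than the wildtype SD of 0.76. Cox6b1 had 0.04 (SE 0.14), with 0.13 and -0.06 on its 2 probes, and the oxidase genes Cox5a, Cox5b and Cox6c had -0.17, -0.01 and 0.04.

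Complex V has a catalytic head outside the membrane and a stalk and ring that tie it to the membrane. The 5 head genes (Atp5a1, Atp5b, Atp5c1, Atp5d, Atp5e) all had lower values in null hearts, by -0.15 to -0.06 with a median of -0.08. Of the 10 genes of the stalk and membrane part 7 had lower values, with a median of -0.05. Atp5a1, the alpha subunit gene, read 0.53, 0.76, 0.55 and 0.88 in wildtype and 0.28, 0.58, 0.32 and 0.92 in null hearts, a difference of -0.15 (SE 0.15). Null replicates 1 and 3 were below all wildtype arrays, and null replicate 4 was above them all. Atp5b, the beta subunit gene, read 0.46, 0.64, 0.93 and 0.82 in wildtype and 0.55, 0.63, 0.57 and 0.83 in null hearts. Its difference was -0.07 (SE 0.13), and its 3 probes gave -0.10, 0.04 and -0.13.

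Atp5o, whose product links the head to the stalk, had the smallest p-value of complex V. It read 0.27, 0.74, 0.84 and 0.67 in wildtype and 0.39, 0.49, 0.30 and 0.68 in null hearts, a difference of -0.17 (SE 0.14, adjusted p = 0.756 in limma). Wildtype replicate 1 was the lowest of all 8 arrays and null replicate 4 lay above wildtype replicate 4, so that the genotypes overlapped. Atp5pb, the gene of stalk subunit b, read 0.36, 0.62, 0.69 and 0.81 in wildtype and 0.42, 0.67, 0.31 and 0.64 in null hearts, a difference of -0.11 (SE 0.13). Atp5md, the gene of a small membrane subunit, read -0.36, 0.28, -0.18 and 0.06 in wildtype and -0.12, -0.15, -0.27 and -0.12 in null hearts, a difference of -0.11 (SE 0.14).

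Atp5g1 encodes subunit c, which forms the rotating ring. It had a difference of 0.06 (SE 0.13), with 0.18 and -0.06 on its 2 probes, and these probes also differed in ratio. One read -0.33 to 0.14 over the 8 arrays and the other 0.18 to 0.81. The related genes Atp5g2 and Atp5g3 encode the same mature subunit, and which transcripts each probe detects is not known here. Atp5e, the epsilon subunit gene of the head, had -0.14 (SE 0.21), with -0.56 on null replicate 3 and -0.24 on wildtype replicate 1. The remaining members of complex V had differences between -0.08 and 0.06. Cycs, the gene of the electron carrier between complexes III and IV, read 0.19, 0.52, 0.73 and 0.71 in wildtype and 0.51, 0.35, 0.80 and 0.64 in null hearts, a difference of 0.04 (SE 0.15). On null replicate 3, the lowest null array for complexes III, IV and V, Cycs had its highest value of all arrays.

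Of the 14 members with several probes that passed, 5 had probes of opposite sign, Atp5b, Atp5g1, Cox6b1, Cox7a2 and Uqcrc1. Their differences over all probes lay between -0.07 and 0.06.

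The complexes were compared with each other inside each array, where the centring of the array cancels. The mean of complex II minus that of complex III was above 0 on 8 of 8 arrays, at 0.21 ± 0.07 in wildtype and 0.30 ± 0.09 in null hearts (SD, n = 4 each). Complex II minus complex V was also above 0 on 8 of 8 arrays, at 0.15 ± 0.14 and 0.20 ± 0.08. These offsets carry the properties of the probes and of only 2 complex II genes. Complex II minus complex IV, at 0.16 ± 0.16 and 0.17 ± 0.14, was above 0 on 6 of 8 arrays. The exceptions were wildtype replicate 3 at -0.020 and null replicate 1 at -0.026. Complex III minus complex IV was -0.05 ± 0.13 in wildtype and -0.13 ± 0.05 in null hearts, complex III minus complex V was -0.06 ± 0.08 and -0.10 ± 0.05, and complex IV minus complex V was -0.01 ± 0.16 and 0.03 ± 0.06. The change between genotypes was at most 0.09 for any of the 6 pairs of complexes, and the wildtype and null arrays overlapped in each pair.

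The order of the medians depended on single arrays. Without wildtype replicate 1, the array with the fewest values, the median difference was -0.15 in complex III, -0.15 in complex V, -0.08 in complex IV and -0.03 in complex II, and 31 of 36 genes had lower values, 15 of 15 in complex V. Without null replicate 3 the medians of complexes IV and V were 0.02 and 0.0041, and 19 of 36 genes had lower values, 7 of 15 in complex V. Without wildtype replicate 3 those medians were 0.04 and just under 0, with 20 of 36 and 8 of 15 genes lower. With both low arrays, wildtype replicate 1 and null replicate 3, left out, a choice made after seeing the data, the medians were -0.11, -0.07, -0.04 and 0.01 for complexes III, V, IV and II, and 29 of 36 genes had lower values. Complex III had a median between -0.15 and -0.07 with any 1 array left out, and its count of lower genes was 5 of 7 without null replicate 3 and 6 or 7 of 7 without any other single array. Without null replicate 4 the medians of complexes IV and V, -0.12 and -0.13, lay below that of complex III, -0.11. Members called remained 0 in each of these fits.

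**Figure D4:**
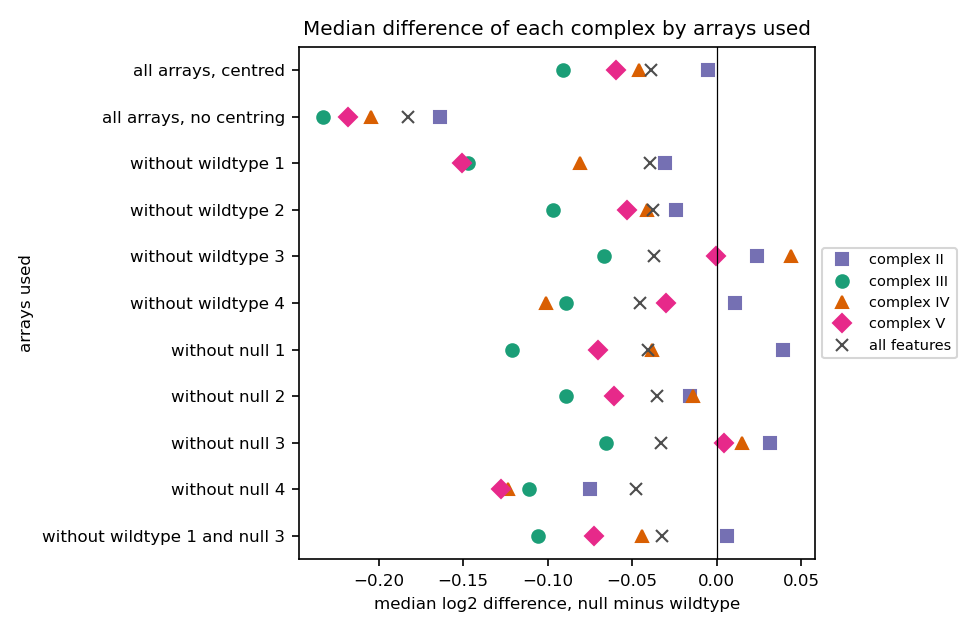
The median log2 difference of null minus wildtype (x axis) is plotted for each complex and for all features, with all arrays, without centring, and with arrays left out (y axis). Complex III stays below 0 and below all features in each row, whereas complex IV lies above 0 and complex V at about 0 without wildtype replicate 3 or null replicate 3, and without centring all 5 medians shift down.

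Genes around the complexes were fitted in the same way. Of 21 measured genes on the list of assembly factors 14 had lower values, with a median difference of -0.01, and 0 passed in limma. Such factors insert cofactors or join subunits, but the list also holds the ATPase inhibitor Atpif1, which gave that median, and the mRNA factor Lrpprc. Averaged over the 19 with values on all arrays, the difference was -0.08, against -0.05 for 33 genes of complexes II to V without Cox6b2. Coa5, a factor for complex IV, had 0.23 (SE 0.10, adjusted p = 0.588 in limma), and Uqcc3, a factor for complex III, had -0.29 (SE 0.14, adjusted p = 0.607 in limma). The assembly factor list had a median mean ratio of 0.12, nearer to the array median than that of the subunits. Of 12 measured regulators of respiratory genes 8 had lower values, with a median of -0.04, and 0 passed. Tfb2m, a mitochondrial transcription factor, had -0.26 (SE 0.11, adjusted p = 0.591 in limma), and Creb1 had 0.24 (SE 0.13). The coactivator gene Ppargc1b had ratios of 0.98 in wildtype and 1.00 in null hearts, and Ppargc1a was not measured. In complex I, Ndufb3 and Ndufb9 had the smallest p-values, with -0.33 (SE 0.13) and -0.21 (SE 0.11).

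Markers of other cells stood as follows beside these differences. Erythroid markers had higher values in null hearts for 7 of 8 measured genes (median 0.20), endothelial markers for 6 of 7 (0.18) and fibroblast markers for 5 of 5 (0.12). Smooth muscle markers had lower values for 3 of 3 (-0.03), and macrophage markers for 2 of 4 (-0.03). The 3 cardiomyocyte markers gave -0.19 for Pln, 0.33 for Nppa and 0.13 for Actn2. In 1 of these 3 the null and wildtype values did not overlap, where 5.54% of all features lay wholly below and 2% wholly above. Sarcomere genes, which also include Actn2, had higher values for 5 of 8 (median 0.07), 1 of the 8 at an unadjusted p under 0.05 in limma, and 0 passed. Array means of each of these lists overlapped between genotypes. Genes of other adult tissues, which the reference contained, had the most one-sided differences: 11 of 11 measured had lower values in null hearts (median -0.33), 5 at an unadjusted p under 0.05, and 0 passed in limma. Examples were Trf, the transferrin gene, with -0.85 (SE 0.21, adjusted p = 0.510 in limma), Scgb1a1 of the airway with -0.59 (SE 0.15) and the surfactant gene Sftpc with -0.63 (SE 0.19). Over the 9 with values on all arrays, the array means ran from -2.16 to -1.67 in wildtype and from -2.63 to -2.18 in null hearts, so that they did not overlap, and null replicate 3 was the lowest. For all these lists their part in the differences of the respiratory genes was not tested.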

How the data were processed

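Per the labels, 2-colour arrays compared pooled neonatal hearts (Cy3) with 1 common reference (Cy5). The deposited values are log2 ratios; how the authors corrected background, filtered spots and scaled is not given in the sources used here. Base 2 was taken from the values: of 30866033 differences between values, 7497 equalled, to 1.5e-09, the base 2 log of some fraction with terms no larger than 120, against 266 for base e and 795 for base 10. Heart was taken as numerator because sarcomere genes lay above genes of other adult tissues on 8 of 8 arrays. Of 28704 probes 18511 had 1 symbol, 937 several and 9256 are unnamed here; 18267 matched the GRCm38.p6 gene table and 0 changed symbol.

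Arrays were centred on their medians, several probes of 1 gene were combined in a model with a term per probe and per array, and genotypes were compared (null minus wildtype) by lmFit and eBayes of limma 3.58.1 (R 4.3.3), adjusted by Benjamini-Hochberg over 11804 features (7603 named genes, 4201 probes without a single symbol). With an array left out, features and probes stayed those of all arrays. Named are Gja1, both complex II genes, per other complex the 3 smallest p-values and the highest and lowest ratio, Cycs, isoform pairs, members whose probes disagree, and up to 2 genes of other lists; other genes were named after their values were seen. Members, lists and tests were chosen with earlier results of these data known. Same-numbered arrays of both genotypes had correlated deviations of -0.25 to -0.01, so that numbers were not taken as pairs. Python 3.11.15 and matplotlib 3.10.9 made tables and figures.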

Additional observations from a re-analysis of the deposited data

Results flagged for a closer look

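Of 52 groups of 4 arrays tested for a single far value by Dixon's criterion, 2 were picked out, where chance alone picks about 1 in 20. Cox7c on wildtype replicate 1 read 0.18, whereas wildtype replicates 2 to 4 lay between 0.53 and 0.57. Cox4i1 on wildtype replicate 3 read 0.67, whereas the remaining wildtype arrays lay between 0.31 and 0.36.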

How the results depend on the processing

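Precision is limited by 4 pools per genotype, and 0 features were called in limma under every alternative run. Without centring, the median difference was -0.16 in complex II and -0.23 in complex III, with -0.18 over all features, 85.0% of all features and 35 of 36 subunit genes lower in null hearts, so that direction is stated after centring only. At an unadjusted p under 0.05 the members counted 6 without centring, 5 without wildtype replicate 1 and at most 1 in the other fits. With the replicate number as a block, which the array correlations of -0.24, -0.01, -0.25 and -0.02 do not bear out as pairs, Uqcrc2 kept -0.19 (adjusted p = 0.796) and no call changed.

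Changes of sign were followed only for the genes named by rule and the isoform pair, and those of other members are not listed in full. The following differences changed sign, among them that of Cox8a, the largest of all members at 0.23. Without centring they were Sdhd -0.020, Cox7b -0.068, Cycs -0.12, Cox6b1 -0.12, Cox7a2 -0.15 and Atp5g1 -0.10. Every subunit gene but Cox8a was then lower in null hearts, so that Cox6c, Atp5h and Atp5mpl changed sign too. Centring within blocks gave Cox7a2 -0.017. Quantile normalization gave Uqcrc1 0.011, Cycs -0.029, Cox6b1 -0.0012 and Cox7a2 -0.036. Scaling to equal spread gave Uqcrc1 0.0064, Cox6b2 0.017, Cycs -0.040, Cox6b1 -0.015, Cox7a2 -0.048 and Cox6b2 minus Cox6b1 0.033. Genes with values on all 8 arrays gave Uqcrc1 0.067. The probe with the fewest missing values gave Uqcrc1 0.067, Atp5b 0.037, Cox6b1 -0.057, Cox7a2 -0.0054 and Atp5g1 -0.058. Array weights gave Uqcrc1 0.11, Cycs -0.097, Cox7a2 -0.016 and Atp5g1 -0.031. With 1 array, or both low arrays, left out, ranges were -0.10 to 0.087 for Uqcrc1, -0.15 to 0.11 for Cycs, -0.046 to 0.15 for Cox6b1, -0.079 to 0.12 for Cox7a2, -0.072 to 0.14 for Atp5g1, -0.15 to 0.044 for Cox4i1, -0.15 to 0.0076 for Atp5b, -0.035 to 0.46 for Cox8a, -0.22 to 0.017 for Cox6b2 and -0.27 to 0.033 for Cox6b2 minus Cox6b1. The cause was not tested.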
